A study of Arabidopsis thaliana with 42 samples.

Results

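Roots of a bzip19 bzip23 double mutant of Arabidopsis thaliana were compared with roots of wild type plants after zinc was withheld. The 8 arrays titled as roots at the low zinc supply were taken, 4 of wild type and 4 of mutant, out of 42 arrays of roots and shoots in the series. Wild type plants were of the ecotype Columbia (Col-0), and the mutant carries T-DNA insertions in that background. All plants were 4 weeks old, and were grown in hydroponics at 2 µM zinc sulfate for 3 weeks and then at 0.05 µM for 1 week. Each sample pooled the roots of 6 plants from 2 containers, and all 8 arrays carry the same date in their labels. The mutant is a single double mutant line, and no complemented line was among the samples analysed here.

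bZIP19 and bZIP23 are related basic leucine zipper transcription factors that act together in the zinc deficiency response of Arabidopsis. They bind a short palindromic element, the zinc deficiency response element, in the promoters of their target genes, and are held inactive when zinc is plentiful. Their known targets include genes for ZIP transporters, which bring zinc into the cell, genes for nicotianamine synthases, whose product chelates metals for transport within the plant, and a pair of defensin-like genes. In a mutant that lacks both factors, plants grow poorly when zinc is scarce.

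Levels are log2 values of the robust multi-array average (RMA), 1 value per probe set and array. A probe set is a group of array probes that reads 1 gene, or several near-identical genes. Genotypes were compared with limma, and those probe sets were called that stayed under 0.05 after Benjamini-Hochberg adjustment over all 22746 probe sets. Every adjusted p-value below is of this kind. Of these probe sets 59.4% were paired with 1 gene, so several called probe sets carry a letter, from A to K in order of p-value, in place of a name. A listed gene counts as measured below where a probe set was paired with it alone. Whether the 4 samples of a group were grown independently is not said in the labels, and the p-values cover the spread among these samples and no more. As the values come from whole roots, fewer cells of a type and less RNA per cell cannot be told apart.

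Few transcripts were called as different between the genotypes, and most of those called were lower in the mutant. Of the 22746 probe sets 19 (0.0835%) were called, 15 lower (0.0659%) and 4 higher (0.0176%) in mutant roots, and 12 of them differed by at least 2-fold. The 15 lower probe sets were those of bZIP19 itself, of AT5G24240, of the defensin-like genes AT5G33355 and AT3G59930, of ZIP9, AT1G20380 and AT3G12760, and 9 with no gene named. The 4 higher were those of AT5G26270 and AT5G59450 and probe sets J and K. For all 19 the 4 mutant values lay entirely above or below the 4 wild type values, as they did for 8.92% of all probe sets. Over all probe sets the median difference was -0.00 on the log2 scale, and 50.6% lay below 0. When 1 array was left out the count ran from 14, without wild type replicate 2 or 3 or mutant replicate 1, to 21, without mutant replicate 3, with 14 or 15 of the calls lower in mutant each time. When arrays were weighted by their quality the count was 57 and the balance turned, with 35 higher and 22 lower in mutant.

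**Figure D1:**
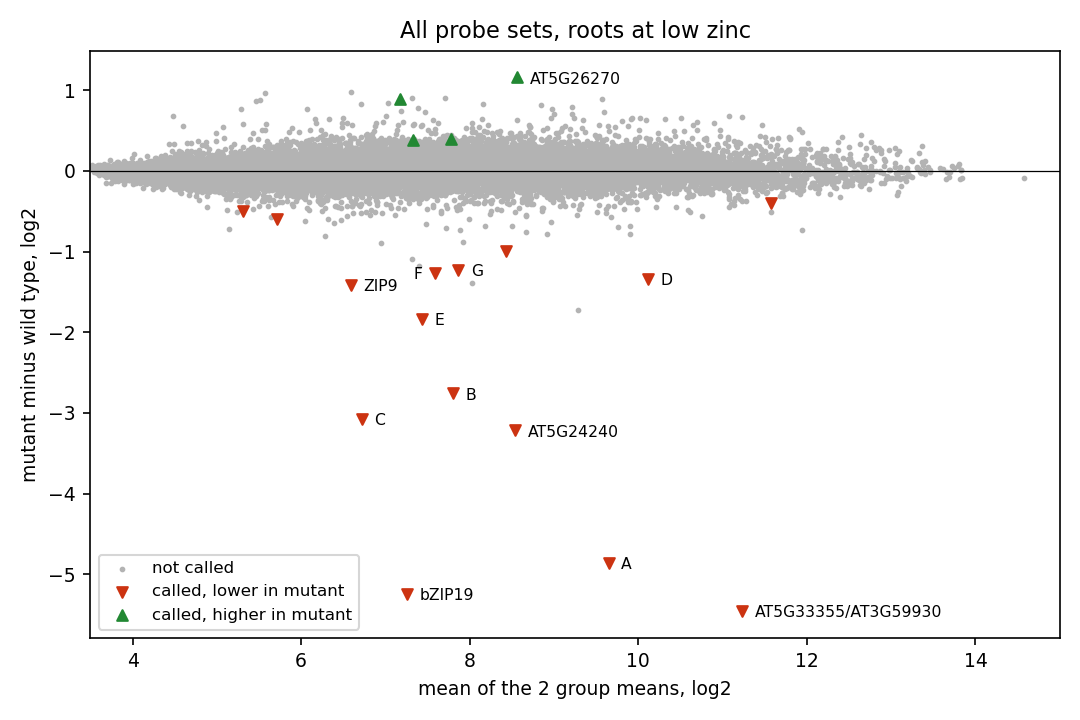
Each point is 1 of 22746 probe sets. The horizontal axis is the mean of the wild type and mutant group means and the vertical axis the mutant minus wild type difference, both log2, in roots at low zinc. The 15 called probe sets that were lower in mutant (red) reach -5.46, and the 4 that were higher (green) reach 1.16.

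The disrupted gene was read first. bZIP19 (AT4G35040) stood at 9.73, 9.77, 9.93 and 10.10 in the 4 wild type arrays and at 4.53, 4.47, 4.38 and 5.17 in the 4 mutant arrays. All mutant arrays thus lay far below all wild type arrays, with replicate 4 the highest of the mutant. The log2 difference was -5.24 (SE 0.14, adjusted p = 3.01e-17), or 37.9-fold. The mutant mean lay above only 14.6% of the probe sets, where background can add to the signal, so the true fold may be larger than this estimate. bZIP23 did not count as measured, and its transcript was not analysed by name here. Whether any probe set with no gene named reads that transcript is not known. bZIP24 (AT3G51960), the third member of the same group of factors and known from the salt response, had a mean of 6.49 (SD 0.33, n = 4) in wild type and of 6.53 (SD 0.34, n = 4) in mutant. The difference was 0.03, with a 95% confidence interval from -0.30 to 0.37.

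Of the known targets named by a probe set here, the defensin-like pair differed more than ZIP9. AT5G33355 and AT3G59930 encode small cysteine-rich peptides of the defensin-like class, and share 1 probe set that cannot tell them apart. It stood at 13.88, 14.00, 14.06 and 13.92 in wild type, among the brightest probe sets on these arrays, and at 8.60, 8.02, 8.74 and 8.67 in mutant. The lowest wild type array was 5.14 above the highest mutant array. The difference was -5.46 on the log2 scale (SE 0.23, adjusted p = 1.24e-13), or 43.9-fold.

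ZIP9 (AT4G33020), a zinc transporter gene of the ZIP family, was the only member of the 12-gene target set paired with a probe set of its own. Whether probe sets with no gene named read other members is not known. Its values were 7.29, 7.17, 7.36 and 7.36 in wild type and 5.50, 5.97, 6.14 and 5.91 in mutant. The groups were 1.03 apart at their nearest values, and the mutant arrays spread more than the wild type arrays (SD 0.27 against 0.09). The log2 difference of ZIP9 was -1.42 (SE 0.15, adjusted p = 5.33e-06), or 2.67-fold. ZIP6 (AT2G30080), a ZIP gene outside the target set, was the only other listed family member paired with a probe set of its own. Its mean was 8.91 (SD 0.07, n = 4) in wild type and 8.80 (SD 0.20, n = 4) in mutant. The difference was -0.11, with a 95% confidence interval from -0.31 to 0.09.

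A member of the phosphatidylinositol 4-kinase gamma family, AT5G24240, had values of 10.08, 10.10, 10.34 and 10.09 in wild type. In mutant the values were 6.75, 6.92, 7.12 and 6.96, so that the groups lay 2.97 apart. Its log2 difference was -3.22 (SE 0.11, adjusted p = 2.98e-15), a level 9.30-fold lower in mutant. Of the 8 listed genes of this family 5 were measured, and of the other 4 none passed. Their log2 differences were all above 0, at 0.45 for AT1G13640 (adjusted p = 0.418), 0.30 for AT1G64460 (adjusted p = 0.464), 0.39 for AT1G26270 (adjusted p = 0.527) and 0.02 for AT3G56600 (adjusted p = 0.948). The unadjusted p-values of AT1G13640, AT1G64460 and AT1G26270 were 0.00678, 0.0110 and 0.0317, and the groups did not overlap for AT1G13640. Of all 22746 probe sets 2009 had an unadjusted limma p-value under 0.05, and in 8.92% the groups did not overlap.

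Probe sets A to E were lower in mutant by 2.53-fold or more, and none of them could be named. A stood at 12.11, 12.02, 11.94 and 12.24 in wild type and at 7.03, 7.18, 7.33 and 7.34 in mutant, a 29.0-fold difference (log2 difference -4.86, SE 0.13, adjusted p = 2.90e-17). This was the smallest p-value of the comparison, and wild type lay above 98.9% of the probe sets. B stood at 9.02, 9.11, 9.22 and 9.35 in wild type and 6.48, 6.30, 6.57 and 6.32 in mutant, a 6.77-fold difference. C stood at 8.08, 8.70, 7.97 and 8.29 against 5.10, 5.22, 5.22 and 5.20, an 8.44-fold difference. In C the wild type arrays spread over 0.73 and the mutant arrays over 0.12. D was the brightest of these in mutant, at 10.76, 10.86, 10.56 and 10.96 in wild type and 9.51, 9.26, 9.46 and 9.55 in mutant, a 2.53-fold difference. E, with values of 8.47, 8.21, 8.46 and 8.25 in wild type and 6.58, 6.50, 6.67 and 6.30 in mutant, was 3.56-fold lower. The adjusted p-values of B to E ran from 3.83e-15 to 1.21e-09.

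Smaller falls were found for F, G, AT1G20380, AT3G12760, H and I. F was 2.40-fold lower (8.22 ± 0.20 against 6.96 ± 0.06, SD, n = 4; adjusted p = 6.81e-08) and G 2.34-fold lower (8.48 ± 0.13 against 7.25 ± 0.26; adjusted p = 0.00181). AT1G20380, of the prolyl oligopeptidase family, had values of 8.53, 8.99, 8.97 and 9.21 in wild type and 7.99, 7.83, 8.12 and 7.79 in mutant. Its groups were 0.41 apart and differed by -0.99 (SE 0.15, adjusted p = 0.00182), or 1.98-fold. AT3G12760, whose product is related to the DCN1 proteins that promote the attachment of NEDD8 to cullins, stood at 11.76, 11.79, 11.75 and 11.77 in wild type and 11.41, 11.24, 11.53 and 11.32 in mutant. The wild type values lay within 0.04 of each other, and the difference of -0.39 (SE 0.06, adjusted p = 0.00203), or 1.31-fold, did not pass in a fit of the 8 arrays alone (adjusted p = 0.0767). In the RefSeq gene order AT3G12760 lies next to ZIP1 (AT3G12750), a member of the target set with no probe set paired with it here, and no other called gene lay within 2 genes of a listed gene. H was 1.52-fold lower (adjusted p = 0.00306) and I 1.42-fold lower (adjusted p = 0.0155). H lost its call in the 8 arrays alone (adjusted p = 0.0525), and I lost its call without wild type replicate 2, 3 or 4 or mutant replicate 1 or 2, its highest adjusted p over the alternatives being 0.105.

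Of the 4 probe sets that were higher in mutant, AT5G26270 differed most. It stood at 8.24, 8.17, 7.99 and 7.53 in wild type and 9.03, 8.54, 9.20 and 9.79 in mutant. Its level was 2.23-fold higher in mutant (1.16 on the log2 scale, SE 0.23, adjusted p = 0.0432), with the widest spread of the 19 in mutant (SD 0.52). J stood at 6.84, 6.62, 6.61 and 6.85 in wild type and 7.62, 7.77, 7.35 and 7.73 in mutant, 1.85-fold higher (adjusted p = 0.0191). AT5G59450, of the GRAS family of transcriptional regulators, was 1.31-fold higher (7.58 ± 0.05 against 7.98 ± 0.12, SD, n = 4; adjusted p = 0.0410), and K also 1.31-fold higher (adjusted p = 0.0266). The call of AT5G26270 was lost without any array other than mutant replicate 2 and that of AT5G59450 without any other than mutant replicate 3, with adjusted p up to 0.233 and 0.263 over all alternatives. K also lost its call without 7 of the 8 arrays (adjusted p up to 0.154), all but mutant replicate 3, and J lost its own without wild type replicate 2 or 3 or mutant replicate 1, 2 or 4 (adjusted p up to 0.123).

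**Figure D2:**
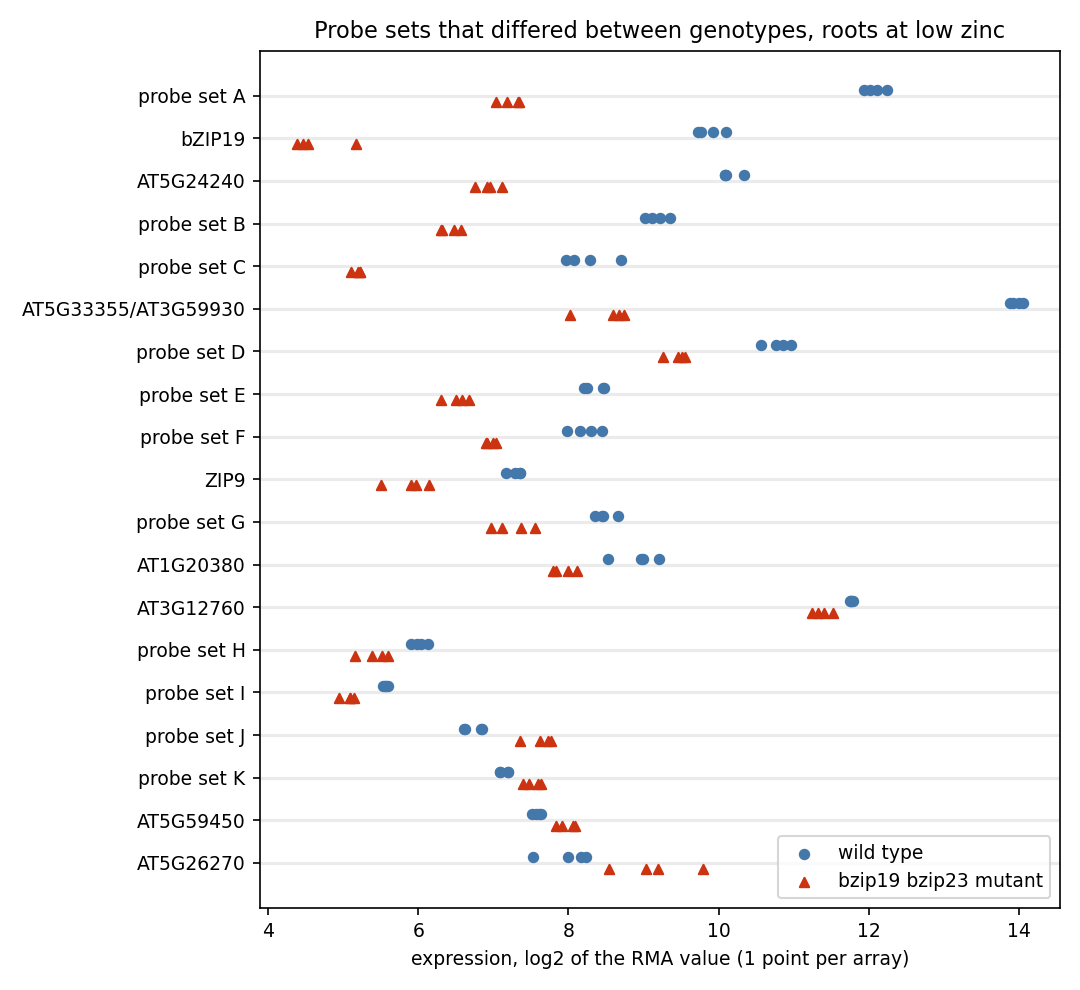
Expression (log2 RMA value, horizontal axis) of the 19 called probe sets on each of the 8 root arrays at low zinc, with wild type as blue circles and mutant as red triangles. No probe set has a mutant array between wild type arrays; the widest gap is 5.14 for AT5G33355/AT3G59930 and the narrowest 0.21 for K.

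The next question was whether the genotype difference was the same in roots that had more zinc. Roots of both genotypes at normal (2 µM) and excess (25 µM) supply, 4 arrays in each group, were used for this. They share no array with the comparison above, but the same mutant line, and their labels carry a later date. At normal zinc 0.0572% of all probe sets were called, 0.0528% lower and 0.00440% higher in mutant, and at excess zinc 1.48%, of which 0.853% were lower and 0.624% higher. Of the 15 probe sets that were lower at low zinc 10 were also called lower at normal zinc and 7 at excess zinc, and all 15 had differences below 0 at both. None of the 4 higher probe sets was called at either supply in the limma fit, and their differences ran from -0.12 to 0.59, with unadjusted p-values under 0.05 for K and AT5G26270 at normal zinc. The count at normal zinc was 348 without wild type replicate 1 and 24 without mutant replicate 2. The count at excess zinc lay between 24 without mutant replicate 3 and 1305 without wild type replicate 4, and was 5 when the arrays of that supply were fitted on their own. Conversely, of the 13 probe sets called at normal zinc 10 were among the 19, and the other 3 were AT5G38710, Fes1C and ATC, named after their values were seen. ATC (AT2G27550), a relative of the flowering repressor TFL1, differed by -1.16 at normal zinc (adjusted p = 0.0381) and by -0.73 at low zinc (adjusted p = 0.374).

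In bZIP19, AT5G24240, F and I the difference passed at all 3 supplies and no interaction with zinc passed. AT5G24240 was 9.77-fold lower at normal zinc and 13.2-fold at excess zinc, against 9.30-fold at low zinc, and its difference at low zinc minus that at excess zinc was 0.50 (95% confidence interval from 0.17 to 0.83, adjusted p = 0.165). F was 2.35-fold and 2.69-fold lower at normal and excess zinc (adjusted p = 1.44e-07 and 1.80e-08). In wild type the 3 group means of F lay within 0.08 of each other and those of I within 0.04. The intervals for F were -0.34 to 0.27 against normal and -0.14 to 0.47 against excess zinc, and smaller changes with zinc were not detectable with these arrays.

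In the defensin-like pair and in probe sets A to E the difference was smaller where zinc was higher. Wild type levels stepped down with the supply, while mutant levels spanned little. That order of wild type means also held for bZIP19, I, AT1G20380, AT3G12760 and H. It held for 11 of the 15 lower probe sets in all, against 22.3% of all probe sets. The differences of ZIP9, G, AT1G20380, AT3G12760 and H were also smaller in size at both other supplies, and their interactions are given below. The low zinc arrays carry another date in their labels than the rest. Date and supply thus cannot be told apart in a step of level from low zinc to another supply, here and below. Root arrays at normal and excess zinc share a date, and each genotype difference lies within 1 date. For the defensin-like pair the difference was 43.9-fold at low, 9.12-fold at normal (adjusted p = 1.33e-08) and 1.24-fold at excess zinc (adjusted p = 0.549). Wild type means were 13.96, 11.49 and 8.64, and mutant means 8.51, 8.30 and 8.33. B behaved in the same way, with wild type means of 9.18, 7.56 and 6.79 and mutant means of 6.42, 6.38 and 6.42, which lay within 0.04. The log2 differences of A were -4.86, -3.89 and -1.73 at low, normal and excess zinc, and those of C were -3.08, -1.60 and -0.74. For D they were -1.34, -0.71 and -0.26, and for E -1.83, -1.06 and -0.58. B, D and the defensin-like pair did not pass at excess zinc (adjusted p = 0.0617, 0.0810 and 0.549), and A, C and E passed at every supply. Mutant means over the supplies spanned 0.05 in C, 0.12 in D, 0.22 in E and 0.57 in A.

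Tests of the interaction, which subtract the genotype difference at another supply from that at low zinc, use the low zinc arrays again. Against normal zinc 4 of 22746 probe sets (0.0176%) were called, all among the 19. These were B (interaction -1.58, adjusted p = 1.98e-06), C (-1.48, adjusted p = 0.000142), the defensin-like pair (-2.27, adjusted p = 0.00428) and D (-0.63, adjusted p = 0.0357), and D lost its call in 16 of 24 alternatives. The interactions of A (-0.97, adjusted p = 0.113) and E (-0.77, adjusted p = 0.547) against normal zinc did not pass. Against excess zinc 38 (0.167%) were called, 8 of them among the 19: A (-3.13), B (-2.39), C (-2.33), the defensin-like pair (-5.15), D (-1.08), E (-1.26), ZIP9 (-1.01) and K (0.51). The first 6 of these kept their calls in all 24 alternatives, while ZIP9 (adjusted p = 0.0483) kept its call in 8 and K (adjusted p = 0.0444) in 10. Leaving out 1 array moved the count of 38 by over 1.5 times in 14 of 16 instances. It was lowest, at 8, without wild type replicate 3 at low zinc or mutant replicate 3 at excess zinc, and highest, at 616, without wild type replicate 4 of excess zinc. A fit of the 4 groups alone gave 9.

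The levels of ZIP9 did not step down from low to excess zinc. At normal zinc it stood at 6.44 ± 0.20 in wild type and 5.90 ± 0.11 in mutant, a difference of -0.54 (adjusted p = 0.269), and its interaction against normal zinc was -0.88 (95% confidence interval from -1.31 to -0.44, adjusted p = 0.828). At excess zinc the wild type mean was 7.44 and the mutant mean 7.04 (difference -0.40, adjusted p = 0.168). The mutant mean at excess zinc was thus above that of the mutant at low zinc, 5.88, whereas the wild type means at low and excess zinc were close together, at 7.30 and 7.44. G ran a like course from low over normal to excess zinc, with wild type means of 8.48, 7.68 and 8.33 and mutant means of 7.25, 7.15 and 7.83 in the same order of supplies.

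For G, AT1G20380, AT3G12760 and H the difference was found at low zinc and did not pass at the other supplies. AT1G20380 was 1.54-fold lower at normal zinc (adjusted p = 0.204) and 1.16-fold lower at excess zinc (adjusted p = 0.495). AT3G12760 differed by -0.09 at both. Whether these differences depend on the supply was tested by the interactions, which did not pass for any of the 4 (adjusted p from 0.0796 to 1.00). The wild type means of J were 6.73, 7.70 and 8.27 at low, normal and excess zinc and its mutant means 7.62, 7.66 and 8.37. Its interaction of 0.92 against normal zinc (95% confidence interval from 0.45 to 1.39) did not pass (adjusted p = 1.00). Which genotype moved at low zinc cannot be told, as the low zinc arrays carry another date.

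**Figure D3:**
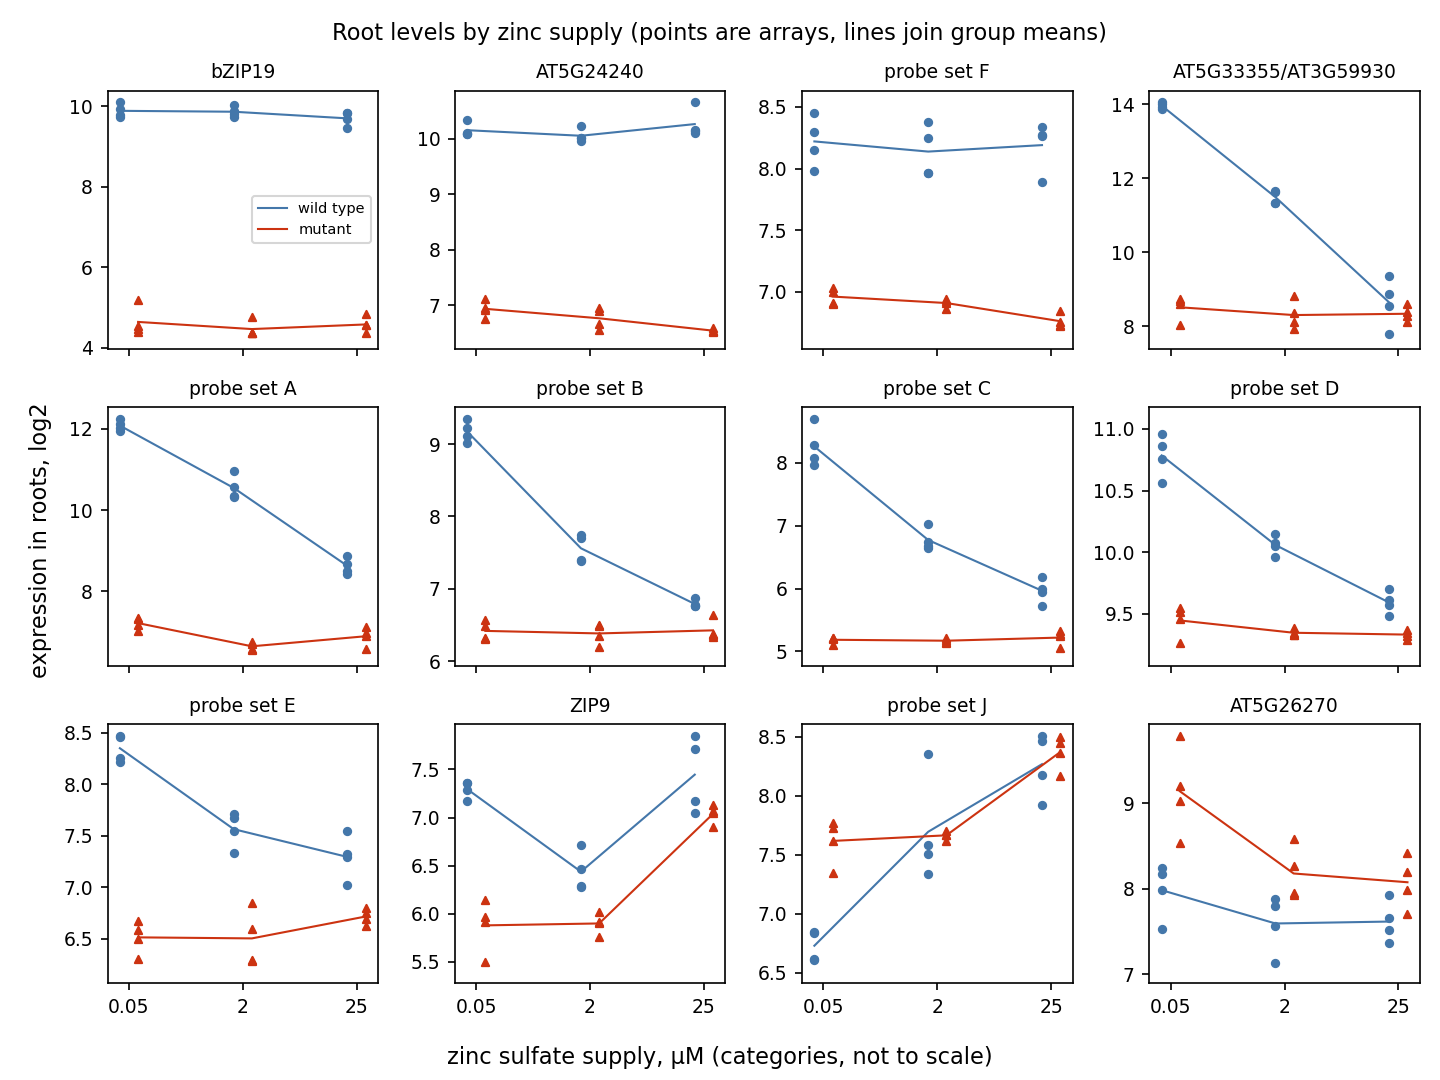
Levels in roots (log2, vertical axes that differ between panels and do not start at 0) at 0.05, 2 and 25 µM zinc sulfate for 12 of the 19 probe sets. Points are arrays (4 per group), blue for wild type and red for mutant, and lines join the group means. Wild type levels of the defensin-like pair and of A to E step down with zinc towards a mutant level that spans 0.04 to 0.57, while bZIP19, AT5G24240 and F run in parallel.

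Shoots of the same genotypes at low zinc, 3 arrays in each group, gave a separate set of samples. There 5.88% of all probe sets were called, 2.75% lower and 3.13% higher in mutant. Of the 15 probe sets that were lower in roots 9 were called lower in shoots, and of the 4 that were higher K was called higher (0.48, adjusted p = 0.0379). B was 8.07-fold lower in shoots (adjusted p = 1.46e-10) and D 2.99-fold lower, and AT5G24240 was 12.8-fold lower. G, which did not pass in roots at normal or excess zinc, was 2.00-fold lower in shoots (adjusted p = 0.00467). By contrast A, at 12.08 in wild type roots, stood at 5.79 in wild type and 5.29 in mutant shoots (adjusted p = 0.142), and ZIP9 at 5.72 and 5.77 (adjusted p = 0.904). The defensin-like pair stood at 7.03 in wild type shoots and was 2.23-fold lower in mutant (adjusted p = 0.00467). Differences between roots and shoots were not tested. The count of probe sets called in shoots, 1337, was 85 without mutant replicate 2 and 438 without mutant replicate 3.

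**Figure D4:**
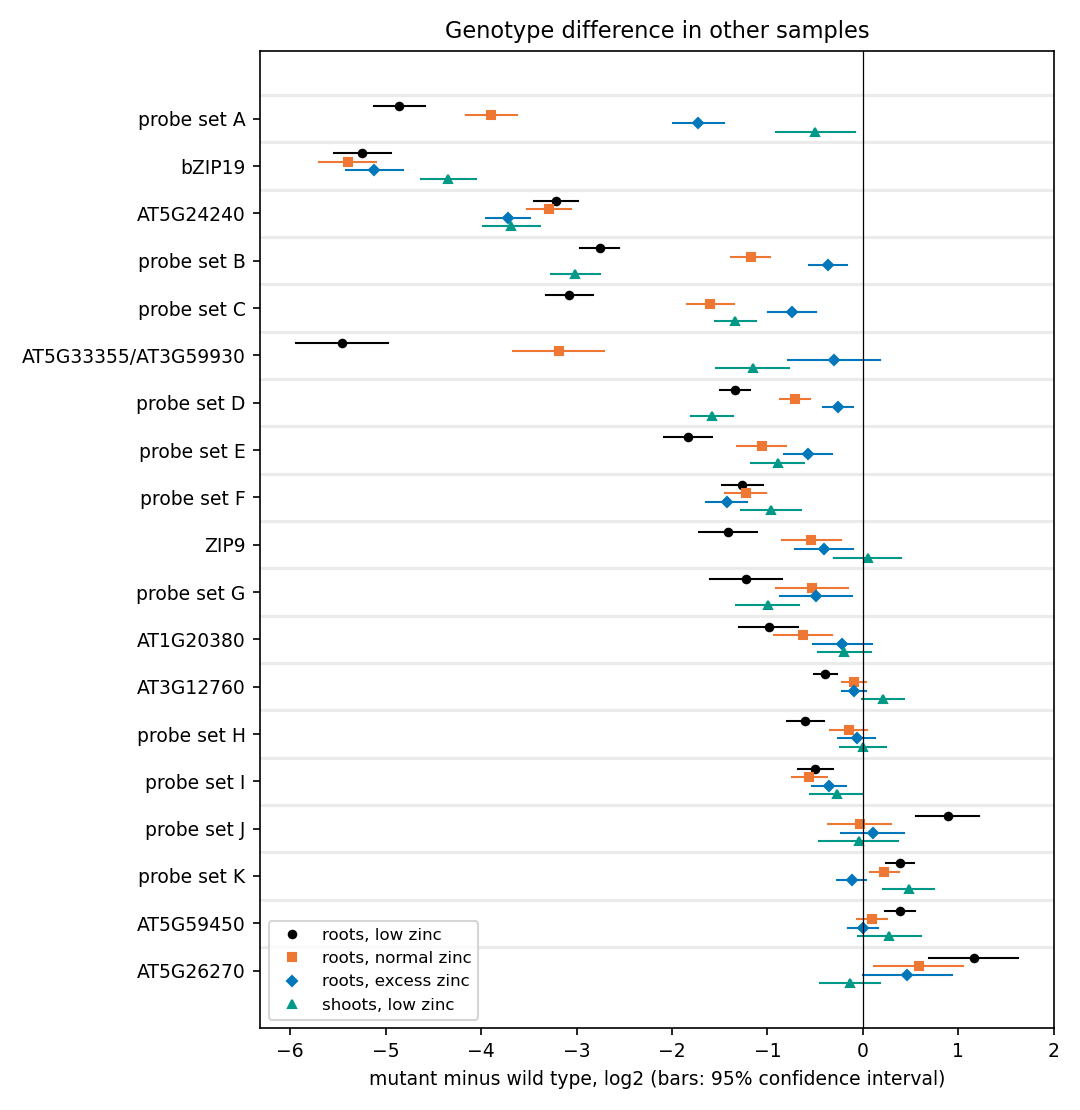
Mutant minus wild type difference (log2, horizontal axis) with its 95% confidence interval for the 19 probe sets, in roots at low (black), normal (orange) and excess zinc (blue) and in shoots at low zinc (green). The differences of A to E and of the defensin-like pair come closer to 0 from low to excess zinc, from -5.46 to -0.30 for the pair. Those of ZIP9, G, AT1G20380, AT3G12760 and H also come closer to 0, and those of AT5G24240 and F do not.

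Other listed genes of metal homeostasis that were measured showed no called difference at low zinc. The 11 called probe sets with no gene named could not be placed in these lists. Of the iron deficiency response 13 of 28 genes were measured by 14 probe sets, and none was called, nor had any an unadjusted limma p-value under 0.05. Over all 22746 probe sets 2009 had an unadjusted limma p-value under 0.05. Their differences ran from -0.30 for S8H, an enzyme of coumarin synthesis, to 0.17 for BTSL2, a ubiquitin ligase of the iron response, with a median of -0.03 against -0.00 over all probe sets. BHLH101, among these genes, stood at 4.5 in wild type and 4.6 in mutant, near or under the level of bZIP19 in mutant, where background can make up the signal. Of the copper genes CITF1 (AT1G71200), a bHLH factor of the copper response, had 7.45, 7.82, 8.30 and 8.25 in wild type and 7.17, 7.60, 7.77 and 7.45 in mutant, a difference of -0.46 (95% confidence interval from -0.82 to -0.10, adjusted p = 0.481). CCS, the copper chaperone of superoxide dismutase, differed by 0.34 (adjusted p = 0.505), and COX5b, a subunit of cytochrome c oxidase, by 0.10 (adjusted p = 0.749), and the unadjusted p-values of CITF1 and CCS were 0.0135 and 0.0235. Among genes of zinc efflux and sequestration 3 of 14 were measured, and the values were -0.18 for MTP2, -0.21 for MTP8 and 0.09 for MTP12 (adjusted p from 0.516 to 0.772), with an unadjusted p-value under 0.05 for MTP2. MTP2 stood at 4.37 in wild type and 4.20 in mutant, under the level of bZIP19 in mutant, where background can make up the signal, so its difference cannot be read as one of expression. None of the 8 genes of metal chelation was paired with a probe set.

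The classical plant defensins, which are distinct from the defensin-like pair of the target set, were not called. Of 12 genes 9 were measured, with a median difference of -0.08, that of PDF1.1. None had an unadjusted limma p-value under 0.05, against 2009 of all 22746 probe sets. PDF1.1, PDF1.2a and PDF2.6 stood at 4.2 to 4.5 in both genotypes. These levels lie under that of bZIP19 in mutant, where background can make up the signal, so their differences cannot be read as ones of expression. PDF2.1 (AT2G02120) had the largest difference, -0.66, with 7.51, 7.71, 8.14 and 7.88 in wild type and 7.01, 7.13, 7.46 and 6.99 in mutant. Its groups did not overlap, as was the case for 8.92% of all probe sets, and the adjusted p was 0.627. The limma fit took its spread from all 6 root groups. The SD of PDF2.1 was 0.26 in wild type and 0.22 in mutant at low zinc, but 1.22 in wild type at excess zinc. PDF2.3 differed by -0.30 and PDF2.5 by -0.26 (adjusted p = 0.736 for the latter), and neither passed.

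Some named genes had large differences with no overlap between the groups and still did not pass. Their adjusted p-values rest on the spread within all 6 root groups, not only the 2 at low zinc. On the side of lower values in mutant these were AT3G62930, of the glutaredoxin family, at -1.18 (adjusted p = 0.418), AT1G52790, of the 2-oxoglutarate-dependent dioxygenases, at -1.09 (adjusted p = 0.122), AT1G24420, of the HXXXD-type acyltransferases, at -0.81 (adjusted p = 0.293), ATC at -0.73 and AT4G04990 at -0.71 (adjusted p = 0.240). On the other side were AT2G15960 at 0.83 (adjusted p = 0.533), AT5G45310 at 0.78, AT1G21680 at 0.65, JAL22, a jacalin-related lectin gene, at 0.60 (adjusted p = 0.310) and TRM28 at 0.59. TRM28 (AT5G03670) was the nearest to the threshold, with 5.99, 6.23, 6.28 and 6.23 in wild type, 6.76, 6.81, 6.55 and 6.97 in mutant and an adjusted p of 0.0605. The largest difference of any uncalled probe set was -1.72, in one with no gene named, whose mutant values ran from 7.89 to 9.29 against 10.05 to 10.25 in wild type (adjusted p = 0.275).

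Measures of array quality differed between the arrays. The mean correlation of an array with the others of its group was 0.995 to 0.997 in wild type and 0.993 to 0.995 in mutant. The 3′ minus 5′ signal of the actin control, a measure of RNA integrity, was 2.74 to 3.01 in wild type and 2.74 to 3.30 in mutant, and that of the GAPDH control 0.28 to 0.37 and 0.10 to 0.44. Mutant replicates 1, 2 and 4 had lower correlations with their group than any wild type array, mutant replicate 1 had the highest actin value, and mutant replicates 2 and 4 had the lowest GAPDH values, at 0.097 and 0.118. The labelled tissue was checked with EXPA7 and EXPA18, root hair expansin genes and the 2 measured root markers of 14, whose mean level was 7.87 to 8.70 in wild type and 7.397 to 8.45 in mutant roots against 5.70 to 6.06 in shoots. Both had lower means in mutant roots, by -0.52 for EXPA18 and -0.25 for EXPA7, and neither was called (adjusted p = 0.603 and 0.781). The 3 measured markers of photosynthetic tissue of 14 (CHLM, RCA and PSAN) had a mean level of 7.54 to 8.01 in wild type and 7.82 to 8.14 in mutant roots, against 12.8 to 13.1 in shoots. All 3 had higher means in mutant, by 0.17 to 0.29, but none was called (adjusted p from 0.617 to 0.902). The 4 mutant values of CHLM lay above all wild type values, and 8.92% of all probe sets had no overlap in either direction. The part of the array measures and of these markers in the results was not tested.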

How the data were processed

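Per the labels' protocols, biotin-labelled RNA of each sample was read on 1 Affymetrix ATH1 array. The authors deposited log2 values, 1 per probe set and array, and named RMA and limma as their tools, per the submitters' processing notes. For their versions, the sources used here give no statement. Raw intensities were not used. The table held 22810 probe sets, of which 64 controls were not tested. Of the rest 13513 were paired with 1 gene, 503 with several and 8730 with none in the platform table, and names were updated through a RefSeq table of assembly TAIR10.1. Names outside the tables were not sought, and no sequences were used here.

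The 24 root arrays were fitted with 1 mean per group in limma 3.58.1 (R 4.3.3), and the 18 shoot arrays apart from them, two-sided, with no filter on low values. Plots used Python 3.11.15 with matplotlib 3.10.9, pandas 2.3.3 and numpy 2.4.6. The fit was tested on simulated data. The text names every probe set called at low zinc or in an interaction, the measured target genes, up to 4 members of each of 12 lists, and up to 5 uncalled genes in each direction without overlap. Same-numbered arrays of the genotypes were compared for pairing. The correlation of their deviations ran from -0.17 to 0.17, so the numbers were not used as pairs. The groups, lists and rule were chosen with earlier results of these data known. Alternatives were the arrays in the fit, the replicate block, the moderation, array weights, a filter on dim probe sets, the normalization and each array left out. The precision is limited by the number of arrays.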

Additional observations from a re-analysis of the deposited data

Results flagged for a closer look

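Among the 19 called probe sets, the 4 values of each genotype were checked for an array far from the rest, 38 groups in all, and 2 were found. Chance gives about 1 in 20. AT5G24240 stood at 10.34 in wild type replicate 3 and at 10.08 to 10.10 in the other wild type arrays, and C stood at 5.10 in mutant replicate 1 and at 5.20 to 5.22 in the other mutant arrays.

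The genotype difference at low zinc differed from that at normal zinc by -1.58 for B, -1.48 for C, -2.27 for AT5G33355/AT3G59930 and -0.63 for D. It differed from that at excess zinc by -3.13 for A, -2.39 for B, -2.33 for C, -5.15 for AT5G33355/AT3G59930, -1.08 for D, -1.26 for E, -1.01 for ZIP9 and 0.51 for K. A further 30 probe sets, not called at low zinc, also passed this second test.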

How the results depend on the processing

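Of the 19 calls at low zinc 12 were kept in all 16 alternatives, 8 of which left out 1 array: bZIP19, AT5G24240, AT5G33355/AT3G59930, ZIP9, AT1G20380 and A to G. No called difference changed sign. With array weights 57 probe sets were called at low zinc, 35 of them higher, and the fit with the replicate block called 18, 17 of them among the 19, losing AT5G59450 (adjusted p = 0.106) and AT5G26270 (adjusted p = 0.119). The block called 4, 52, 11, 252 and 1074 in the interactions against normal and excess zinc, the genotype difference in roots at normal and excess zinc and that in shoots. With the arrays of the groups compared alone, the counts were 9 for the interaction against excess zinc, 5 for roots at excess zinc and 44 for shoots. With all 42 arrays they were 121 for the interaction against excess zinc, 21 and 510 for roots at normal and excess zinc and 2352 for shoots. Array weights gave 358 for the interaction against excess zinc, 577 and 601 for roots at normal and excess zinc and 3320 for shoots, and repeated quantile normalization gave 24 for the interaction against excess zinc. Without 1 array the counts ran from 14 to 21 at low zinc, 3 to 5 and 8 to 616 for the interactions against normal and excess zinc, 11 to 348 and 24 to 1305 for roots at normal and excess zinc, and 85 to 1889 for shoots. The cause of these shifts was not tested.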

Other observations

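The 30 probe sets that passed the interaction against excess zinc without being called at low zinc had fitted differences of opposite sign at the 2 supplies, and 27 were called at excess zinc. For 27 the difference was also larger in size at excess than at low zinc. These counts follow in part from the choice of probe sets, which passed the interaction and were not called at low zinc. Among the 19 with 1 gene were WRKY53, a transcription factor gene of senescence and defence, with 0.40 and -0.54, ATG8H, of the autophagy ATG8 family, with -0.27 and 0.80, and the cell wall gene XTH16 with -0.47 and 0.98. BGLU32, a beta-glucosidase gene, stood at 6.62 in wild type at excess zinc, and at 4.47 in mutant at excess zinc and at 4.32 in wild type and 4.66 in mutant at low zinc. The last 3 lie near or under the level of bZIP19 in mutant, where background can make up the signal, so the sign of its low zinc difference is not read. WRKY53 kept its call in 23 of 24 alternatives, BGLU32 in 18 of 23, ATG8H in 14 and XTH16 in 9 of 24. The others were AT1G12080, AT5G66590, AT5G02420, AT5G48900, BRH1, AT1G14910, AT1G42440, AT5G01720, AT5G67150, AT5G53990, AT2G04400, AT4G08850, BGLU27, AT4G28420 and AT4G20830, with interactions from -1.52 for AT1G12080 to 1.29 for AT4G20830.

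Genes of the response to low oxygen varied widely among the 4 mutant arrays at low zinc, and the SDs in other root groups are given beside them. AT5G10040 stood at 9.34, 11.62, 9.34 and 5.76 in mutant and at 9.01, 9.22, 9.98 and 9.51 in wild type. STR18 (AT2G17850), of the sulfurtransferase family, stood at 8.54, 10.97, 8.90 and 5.83 in mutant and at 8.43, 8.39, 9.56 and 8.43 in wild type. HRA1 (AT3G10040), a trihelix factor of the hypoxia response, and AT3G27220 had their highest mutant value in replicate 2 as well, at 9.41 and 8.89, and their lowest in replicate 4, at 6.89 and 6.62. Of 10 listed genes 4 were measured, and none was called in limma (adjusted p from 0.844 to 0.974) or had an unadjusted p-value under 0.05. The SD of AT5G10040 was 2.42 in mutant and 0.42 in wild type at low zinc, and in wild type 1.27 at normal and 1.01 at excess zinc. In mutant it was 0.97 at normal and 0.56 at excess zinc. That of AT2G17850 was 2.11 in mutant and 0.57 in wild type at low zinc, and in wild type 1.27 at both other supplies. In mutant it was 1.13 at normal and 0.68 at excess zinc. The SDs of HRA1 and AT3G27220 were 1.05 and 0.93 in mutant at low zinc, and 0.22 to 0.67 in every other root group. At low zinc the median over all probe sets of the SD within a group was 0.11 in mutant and 0.10 in wild type.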
